A study of Mus musculus with 10 samples.

Results

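The SLC25 family was measured here through 44 genes in mouse gastrocnemius, a calf muscle of mostly fast fibres. Members were all genes with a symbol of the form Slc25a plus a number that had a probe set annotated to that 1 gene, except Slc25a20 and Slc25a29, the carriers of acylcarnitines and basic amino acids. In addition, 1 probe set was left out because it is shared by Slc25a35 and another gene. Each member had 1 probe set, so the 44 members are 44 of the 22180 genes tested. Relatives that carry other symbols, such as the uncoupling protein genes, were not members.

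The mice were male NMRI animals, an outbred stock, and each of the 10 arrays held muscle RNA of 1 mouse. In the control group (Muscle_Control, 5 mice) a natural-ingredient diet with less than 5 mg carnitine per kg was fed without supplement. In the carnitine group (Muscle_Carnitine, 5 mice) 1000 mg L-carnitine per kg was added to the same diet, and feeding was free in both groups. Mice of the study were killed at 9, 15 or 18 months, and the age of those put on arrays is not given in the labels. The labels carry no batch, and mice were caged in groups of 5, so an effect of the cage cannot be told apart from that of the diet or from other differences between mice.

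SLC25 proteins are carriers that, with few exceptions, sit in the inner mitochondrial membrane and exchange nucleotides, phosphate, organic acids, amino acids, cofactors and metal ions between the matrix and the cytosol. In muscle the ADP/ATP carrier and the phosphate carrier supply ATP synthase with its substrates and return ATP to the contractile apparatus. The aspartate-glutamate and oxoglutarate carriers form the malate-aspartate shuttle, which brings reducing equivalents of glycolysis into the matrix.

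Values are RMA log2 units, in which a step of 1 is a doubling of signal, and differences are carnitine minus control. RMA is a procedure that removes background, scales arrays to each other and summarises the probes of a set. The muscle identity of the samples was clear: all 12 skeletal muscle markers averaged above 12 (Myh4, the fast myosin heavy chain, at 13.64), while Alb, the liver albumin gene, averaged 4.97. Of the 8 liver genes looked at, 3 averaged above 5.80, the median level of all probe sets, the highest being Apoa1 at 6.52. The array of control replicate 5 was unlike the rest: its interquartile range over genes was 2.03 against 2.29 to 2.61 on the others. It held the lowest value of the 10 arrays for 10 of the 44 members, and carnitine replicate 3 held the highest value for 11.

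The promoters of 4 members whose values are described below are shown, and no link between promoter and difference was tested. Slc25a5 is shown with Slc25a4, its closest muscle paralog, and Slc25a33 and Slc25a16 were 2 of the other 3 members with an unadjusted p below 0.05 on the higher side. They were chosen after the values had been seen. Each window runs from 250 bases before to 50 bases after the annotated start, from RefSeq on GRCm38.p6. Capitals mark matches on either strand to any of 6 short motifs: the TATA box (TATAA), the CCAAT box, the E-box (CACGTG), the ERR element (AAGGTCA), the CRE core (TGACG) and the GC box (GGGCGG).
Slc25a4, chr8:46211013-46211312, minus strand: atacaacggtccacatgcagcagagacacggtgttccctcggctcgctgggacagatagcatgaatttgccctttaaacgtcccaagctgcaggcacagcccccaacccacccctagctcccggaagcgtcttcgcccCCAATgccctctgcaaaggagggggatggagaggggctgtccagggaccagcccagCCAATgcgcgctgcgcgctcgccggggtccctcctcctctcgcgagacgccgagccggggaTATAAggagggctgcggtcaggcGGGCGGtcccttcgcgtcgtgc
Slc25a5, chrX:36795347-36795646, plus strand: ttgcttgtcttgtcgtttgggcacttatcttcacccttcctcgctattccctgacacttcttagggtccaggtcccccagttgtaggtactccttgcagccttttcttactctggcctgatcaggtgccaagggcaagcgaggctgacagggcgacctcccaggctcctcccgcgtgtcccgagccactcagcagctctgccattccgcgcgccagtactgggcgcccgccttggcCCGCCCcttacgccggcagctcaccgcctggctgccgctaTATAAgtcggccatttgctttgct
Slc25a33, chr4:149774218-149774517, minus strand: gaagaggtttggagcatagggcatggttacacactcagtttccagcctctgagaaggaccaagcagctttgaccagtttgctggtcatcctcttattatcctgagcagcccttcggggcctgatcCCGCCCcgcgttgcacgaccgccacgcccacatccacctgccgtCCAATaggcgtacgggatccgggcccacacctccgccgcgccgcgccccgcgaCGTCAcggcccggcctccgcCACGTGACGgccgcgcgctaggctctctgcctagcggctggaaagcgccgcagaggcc
Slc25a16, chr10:62920383-62920682, plus strand: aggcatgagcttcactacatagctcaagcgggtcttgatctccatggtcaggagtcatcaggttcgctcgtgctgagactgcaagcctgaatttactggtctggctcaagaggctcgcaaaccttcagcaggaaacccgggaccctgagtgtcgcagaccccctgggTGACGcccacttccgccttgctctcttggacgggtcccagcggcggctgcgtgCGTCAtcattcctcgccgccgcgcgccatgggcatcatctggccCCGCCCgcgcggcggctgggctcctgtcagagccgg

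Both ADP/ATP carrier windows hold the letters of a TATA box and a GC box, and the Slc25a4 window also holds 2 CCAAT boxes. The TATA matches begin after the annotated start, by 5 bases in Slc25a4 and 26 in Slc25a5, as do the GC matches of Slc25a4 (28 bases) and Slc25a16 (14 bases). The Slc25a33 window holds an E-box whose last letters overlap a CRE core, plus a second CRE core, a CCAAT box and a GC box, and the Slc25a16 window holds 2 CRE cores and a GC box. Windows were found for 34 of the 44 members, 44 windows in all, since some genes have several starts. A GC box was in 81.8% of the members' windows against 35.7% of all 32851 windows of that length, a TATA box in 11.4% against 24.9%, a CCAAT box in 47.7% against 37.4%, an E-box in 18.2% against 7.15% and a CRE core in 29.5% against 20.8%. The ERR element, named for the estrogen-related receptors that drive many mitochondrial genes, was in 2.27% against 4.72%, and the 1 member holding it was Slc25a34. These shares describe letters in short windows and are no evidence of factor binding.

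Mean signal of the members ran from 12.39 for Slc25a4 to 4.61 for Slc25a21, where all genes ran from 2.245 to 13.997. Probe sets differ in how strongly their probes bind, so this order ranks probe set signal and is only a rough guide to transcript abundance. There were 4 members above 10: the ADP/ATP carrier Slc25a4 (12.39), the aspartate-glutamate carrier Slc25a12 (12.28), the oxoglutarate-malate carrier Slc25a11 (11.18) and the phosphate carrier Slc25a3 (10.36). Slc25a4 and Slc25a12 lay closer to each other (0.11 between their means) than the spread of Slc25a12 over mice, so their order was not separated. A further 8 members averaged from 8 to 10: the outer-membrane protein gene Slc25a46 (9.85), which acts in mitochondrial shape, the second ADP/ATP carrier Slc25a5 (9.44), mitoferrin 2 Slc25a28 (8.96), Slc25a16 (8.95), which has been linked to coenzyme A uptake, the glutathione carrier Slc25a39 (8.58), the pyrimidine nucleotide carrier Slc25a36 (8.52), the coenzyme A carrier Slc25a42 (8.42) and the calcium-regulated ATP-Mg/phosphate carrier Slc25a23 (8.35). Slc25a28 and Slc25a16, and then Slc25a39, Slc25a36 and Slc25a42, followed each other within the spread over mice.

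The lower end held 10 members with a mean under 5.80, the median level of all probe sets, where signal is weak and differences are compressed: Slc25a13, Slc25a14, Slc25a2, Slc25a18, Slc25a54, Slc25a53, Slc25a41, Slc25a43, Slc25a31 and Slc25a21. These include Slc25a13, the liver-type aspartate-glutamate carrier (5.48), and Slc25a31, the testis-type ADP/ATP carrier (4.74), whose paralogs Slc25a12 and Slc25a4 topped the list. Slc25a47, a carrier known from liver, averaged 6.64 and lay above that level.

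**Figure D1:**
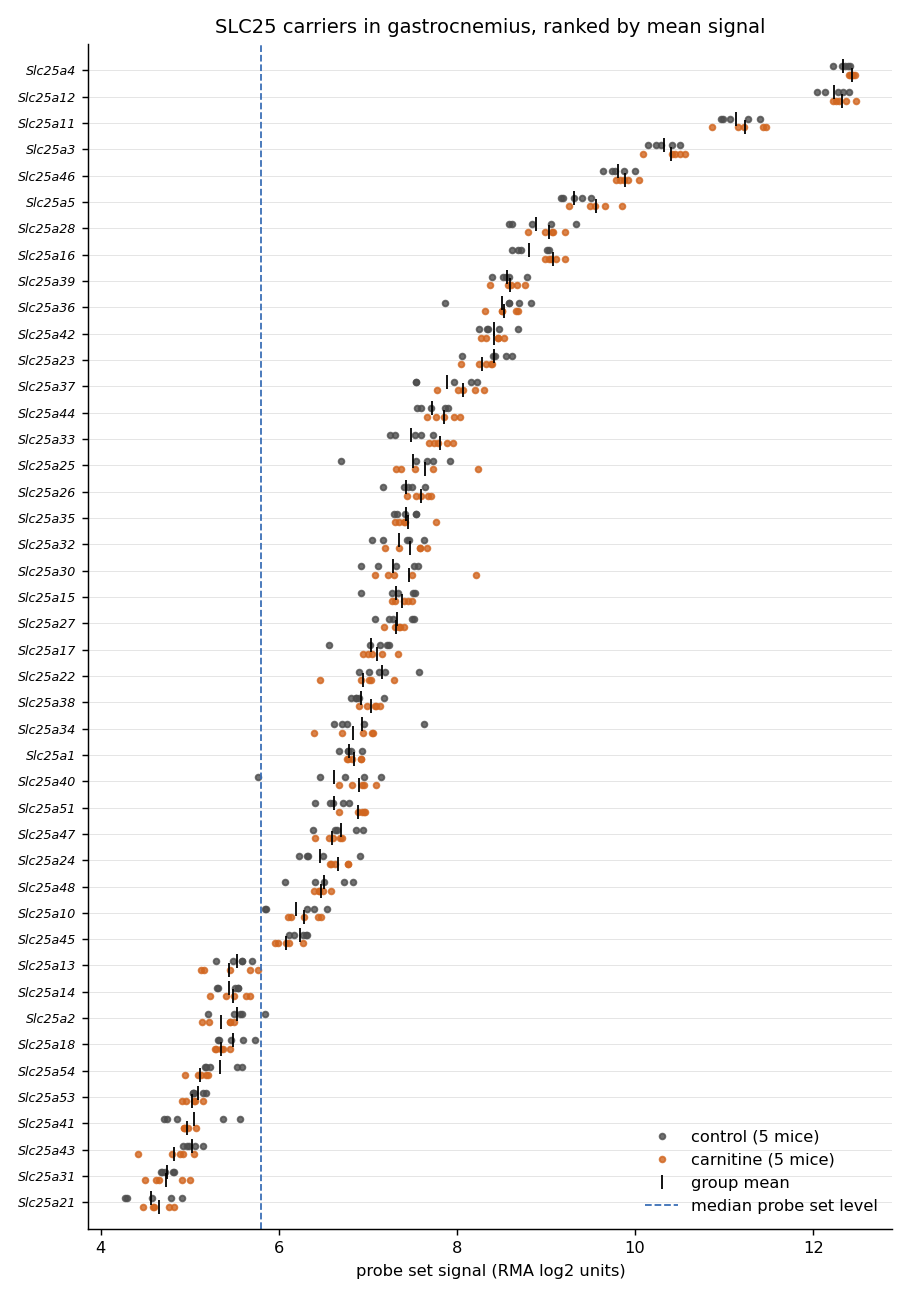
Signal of the 44 SLC25 members in RMA log2 units (x axis), 1 line per gene ranked by its mean, with 1 point per mouse (grey control, orange carnitine, 5 mice each), a black tick at each group mean and a dashed line at the median probe set level of 5.80. Slc25a4 and Slc25a12 sit above 12, 10 members lie left of the dashed line, and the points of the 2 groups overlap in every gene.

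Carnitine feeding was compared with control across all genes with limma (a moderated linear model with a mean-variance trend). None of the 44 members passed an adjusted p of 0.05 (Benjamini-Hochberg over all 22180 genes, smallest adjusted p 0.712 for members), and the background share was 0% of genes. An unadjusted p below 0.05 was found in 4 members with higher and 1 with lower signal in carnitine muscle. The share was 9.09% of members on the higher side against 3.14% of all genes, and 2.27% on the lower side against 3.83%. After cyclic loess, a rescaling that removes intensity-dependent offsets between arrays, 2 were higher and 1 lower. The shares of all genes were then 2.76% and 2.98%. In 0 of 44 members did the groups fail to overlap, against 1.11% of all genes.

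Differences were small throughout. They ran from -0.23 to 0.33, the median over members was 0.066 against -0.008 over all genes, and 28 of 44 were positive (63.6%, against 47.7% of all genes). After cyclic loess the members' median was 0.017, against 0.0004 over all genes, and 25 were positive. The share of all genes with a positive difference was not computed in that setting. Sign went with brightness: 26 of the 34 members above the median probe set level had a positive difference, where 62.8% of all genes above that level did, while 2 of the 10 dim members did, where 26.7% of all dim genes did. For 42 of the 44 members the 95% interval lay inside a change of 1.5-fold in either direction. The exceptions were Slc25a25 (-0.33 to 0.59) and Slc25a40 (-0.15 to 0.71).

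The median difference of the slow-fibre genes was larger than the difference of any carrier. Of these 15 genes 14 had a negative difference and 10 an unadjusted p below 0.05 on the lower side, against 3.83% of all genes, and none passed the adjusted threshold in limma. The median was -0.88, and their mean level was 9.08 ± 0.39 with control and 8.22 ± 0.92 with carnitine feeding (SD over 5 mice each), with ranges of 8.74 to 9.60 and 7.09 to 9.27. Of 54 nuclear oxidative phosphorylation genes 49 had a positive difference and none an unadjusted p below 0.05 in limma, with a median of 0.11. All 54 and all 15 slow-fibre genes lie above the median probe set level, where 62.8% of all genes were positive. The part of fibre type in the carriers' differences was not tested.

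**Figure D2:**
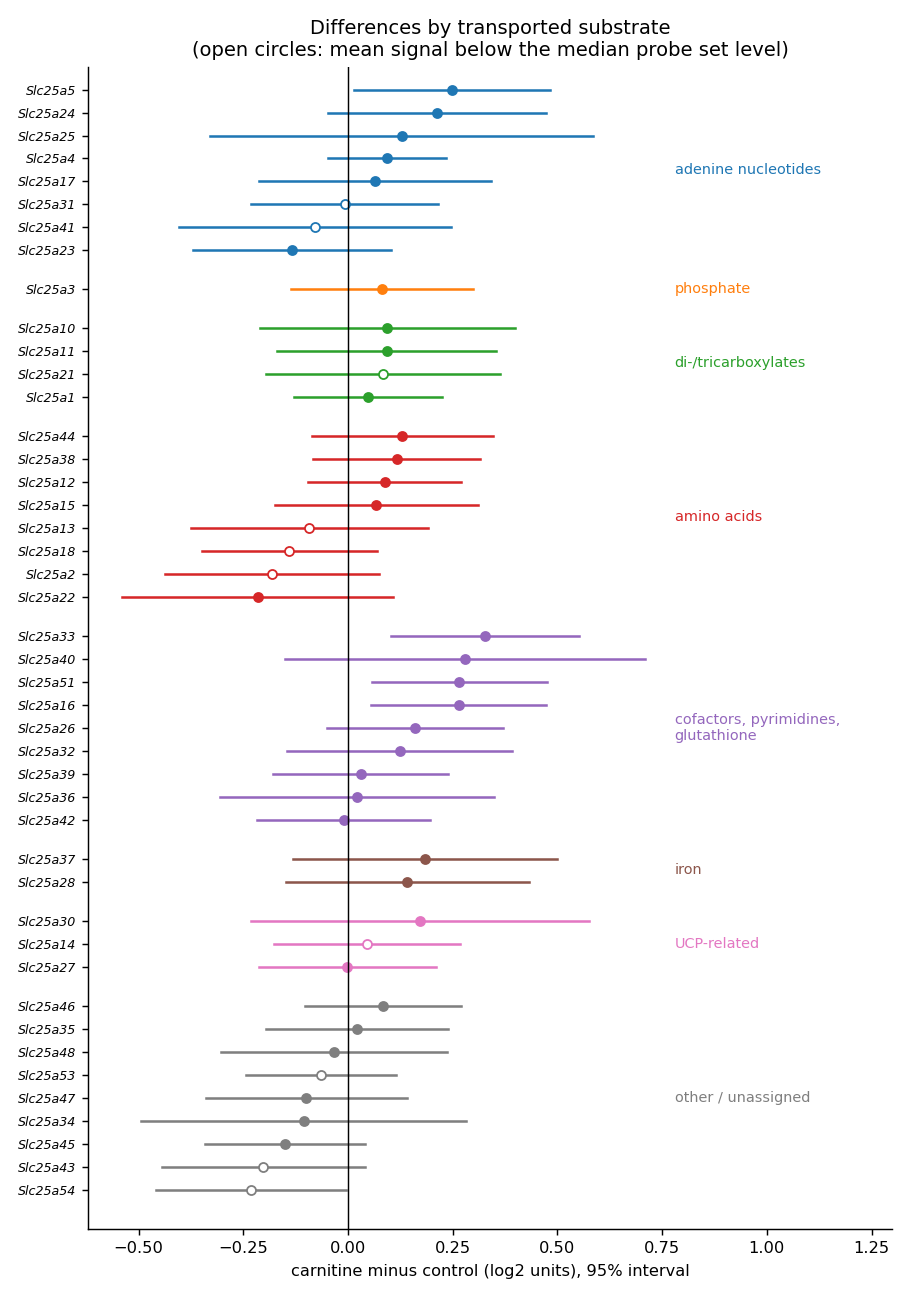
Carnitine minus control in log2 units (x axis) for each of the 44 members, grouped and coloured by the substrate transported, with the limma difference as a circle and its unadjusted 95% interval as a line. Open circles mark members whose mean lies below the median probe set level of 5.80, 8 of which are at or left of 0. The intervals of Slc25a33, Slc25a51, Slc25a16 and Slc25a5 lie to the right of 0 and that of Slc25a54 to the left.

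Adenine nucleotide carriers had 5 of 8 positive differences, and Slc25a5 had an unadjusted p below 0.05. Of the 8, 6 lie above the median probe set level, where 62.8% of all genes were positive. The others are dim, where 26.7% of all genes were positive. Slc25a4, the main ADP/ATP exchanger of muscle and heart, read 12.39, 12.36, 12.32, 12.41 and 12.22 in control replicates 1 to 5. In carnitine replicates 1 to 5 it read 12.44, 12.40, 12.47, 12.45 and 12.41. Every carnitine mouse lay above the control mean and 3 lay above all controls, while the lowest control was replicate 5. Mean signal was 12.34 ± 0.08 with control and 12.43 ± 0.03 with carnitine feeding (SD over 5 mice each), 0.094 apart (SE 0.066, adjusted p 0.73 in limma).

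Slc25a5, the ADP/ATP exchanger found in most proliferating and non-muscle cells, read 9.19, 9.31, 9.40, 9.50 and 9.17 in control. It read 9.49, 9.55, 9.85, 9.66 and 9.26 in carnitine muscle. Carnitine replicates 2, 3 and 4 lay above every control, and replicate 5 lay within the control range. Mean signal was 9.31 ± 0.14 with control and 9.56 ± 0.22 with carnitine feeding (SD over 5 mice each), 1.19-fold higher (log2 difference 0.25, SE 0.11, unadjusted p 0.0394 and adjusted p 0.71 in limma). The unadjusted p was 0.201 after cyclic loess and 0.123 without carnitine replicate 3. Of the markers of non-muscle cells, fibroblast markers had 10 of 10 positive differences, none with an unadjusted p below 0.05. All 10 lie above the median probe set level, where 62.8% of all genes were positive. Their mean level ran from 7.57 to 8.29 in control and from 7.89 to 8.43 in carnitine. Positive differences were found in 5 of 10 endothelial, 5 of 10 macrophage, 5 of 7 Schwann and nerve and 2 of 9 adipocyte markers. Of these markers 10, 8, 5 and 6, in that order, lie above the median probe set level. Among all genes at or below that level 26.7% were positive. The part of these cells in the Slc25a5 difference was not tested, and in a whole-muscle extract more cells of a type and more RNA per cell cannot be told apart.

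The ATP-Mg/phosphate carriers exchange ATP-Mg for phosphate under the control of calcium and so set the size of the matrix nucleotide pool. Slc25a24 read 6.32, 6.91, 6.49, 6.33 and 6.23 in control and 6.78, 6.58, 6.78, 6.57 and 6.63 in carnitine. All carnitine values lay above the control mean, but control replicate 2 was the highest of the 10. The difference was 0.21 (SE 0.12, adjusted p 0.72 in limma). Slc25a23 differed by -0.13 (SE 0.11), with all carnitine mice below the control mean. Slc25a25, the most variable member, differed by 0.13 (SE 0.21), a sign that turned without control replicate 1, which held its lowest value at 6.70, or without carnitine replicate 2, which held the highest at 8.24. Its SD within groups was 0.43, against a median of 0.18 for members and for all genes. The dim relatives Slc25a41 and Slc25a31 differed by -0.078 and -0.008, with signs that turned under other settings. Slc25a17, which carries nucleotides and cofactors into peroxisomes, differed by 0.064 and turned negative without control replicate 5.

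Phosphate and organic acid carriers all had positive differences below 0.10. All but Slc25a21 lie above the median probe set level, where 62.8% of all genes were positive. Slc25a3, which imports the phosphate used by ATP synthase, read 10.51, 10.24, 10.29, 10.42 and 10.15 in control. In carnitine it read 10.41, 10.45, 10.56, 10.51 and 10.09. The carnitine group held both the highest and the lowest value, and the difference of 0.082 (SE 0.10) became -0.011 after cyclic loess. Slc25a11, the oxoglutarate-malate exchanger, read 11.27, 11.07, 10.96, 11.40 and 10.99 in control. It read 11.16, 11.22, 11.44, 11.47 and 10.86 in carnitine, again with the extremes in the carnitine group and a difference of 0.092 (SE 0.12). The citrate carrier Slc25a1 differed by 0.048 (SE 0.083), the dicarboxylate carrier Slc25a10 by 0.094 (SE 0.14) and the oxodicarboxylate carrier Slc25a21, the dimmest member, by 0.084 (SE 0.13).

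Amino acid carriers were split, with 4 of 8 differences positive and none with an unadjusted p below 0.05. Of the 8, 5 lie above the median probe set level, where 62.8% of all genes were positive. The others are dim, where 26.7% of all genes were positive. Slc25a12, which exports aspartate for glutamate, read 12.04, 12.40, 12.13, 12.28 and 12.33 in control. It read 12.22, 12.26, 12.48, 12.37 and 12.29 in carnitine, inside the control range but for replicate 3, and the difference was 0.088 (SE 0.085). The branched-chain amino acid carrier Slc25a44 differed by 0.13 (SE 0.10), the glycine carrier Slc25a38, needed for haem synthesis, by 0.12 (SE 0.093) and the ornithine carrier Slc25a15 by 0.068 (SE 0.11), a sign that turned without control replicate 5. Slc25a22, a glutamate carrier, read 7.57, 7.12, 6.90, 7.19 and 7.01 in control and 7.29, 6.92, 7.03, 7.01 and 6.46 in carnitine. Its difference of -0.22 (SE 0.15) went with a low carnitine replicate 5, the only carnitine value below the control range. The dim members were Slc25a13 at -0.092, the glutamate carrier Slc25a18 at -0.14 and the ornithine carrier Slc25a2 at -0.18. Slc25a2 read 5.58, 5.56, 5.84, 5.20 and 5.49 in control and 5.50, 5.45, 5.22, 5.45 and 5.14 in carnitine. Slc25a18 read 5.33, 5.73, 5.32, 5.60 and 5.46 in control and 5.29, 5.37, 5.45, 5.35 and 5.28 in carnitine. In both genes all carnitine mice lay below the control mean, at a signal where small steps are uncertain.

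Carriers of cofactors, pyrimidine nucleotides and glutathione held 3 of the 4 members with an unadjusted p below 0.05 on the higher side, and 8 of 9 differences were positive. All 9 lie above the median probe set level, where 62.8% of all genes were positive. The share on the higher side was 3.14% of all genes, and 4.63% in the fit of only genes above that level. No test of the class was run. Slc25a33, which brings pyrimidine nucleotides into the matrix for mitochondrial DNA and RNA synthesis, read 7.53, 7.73, 7.60, 7.25 and 7.30 in control. In carnitine it read 7.79, 7.74, 7.95, 7.68 and 7.89. In carnitine muscle 4 of 5 values lay above every control, and carnitine replicate 4 lay just under control replicate 2. Mean signal was 7.48 ± 0.20 with control and 7.81 ± 0.11 with carnitine feeding (SD over 5 mice each), 1.26-fold higher and the largest difference among members (0.33, SE 0.10, unadjusted p 0.00727 and adjusted p 0.71 in limma). The unadjusted p stayed below 0.05 in all 17 alternative settings, at most 0.0233, and the adjusted p ran from 0.365 to 0.90.

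Slc25a51, the mitochondrial NAD+ carrier, read 6.79, 6.61, 6.40, 6.72 and 6.57 in control. It read 6.89, 6.93, 6.97, 6.67 and 6.96 in carnitine. Here too 4 of 5 carnitine values lay above every control, and carnitine replicate 4 lay within the control range. Mean signal was 6.62 ± 0.15 with control and 6.88 ± 0.12 with carnitine feeding (SD over 5 mice each), 1.20-fold higher (0.27, SE 0.098, unadjusted p 0.0162, adjusted p 0.71 in limma). Its unadjusted p was below 0.05 in the same 17 settings, at most 0.0462, with the adjusted p from 0.397 to 0.90.

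Slc25a16 read 8.62, 9.01, 9.03, 8.69 and 8.72 in control and 8.99, 9.05, 9.03, 9.11 and 9.21 in carnitine. Control replicates 2 and 3 lay at the carnitine level, while the other 3 controls lay below all carnitine mice. The difference was 0.26 (SE 0.098, unadjusted p 0.0171, adjusted p 0.71 in limma), and after cyclic loess it was 0.16 with an unadjusted p of 0.0946. For Slc25a42, which carries coenzyme A, the difference was -0.010 (SE 0.096), and it was positive after median centring.

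Slc25a26, which imports S-adenosylmethionine, the methyl donor, read 7.64, 7.49, 7.45, 7.41 and 7.17 in control and 7.60, 7.54, 7.71, 7.67 and 7.44 in carnitine. Its carnitine values were all above the control mean, and the groups overlapped between 7.44 and 7.64. The difference was 0.16 (SE 0.098, adjusted p 0.72 in limma). Slc25a36 read 8.83, 8.70, 8.58, 8.58 and 7.86 in control and 8.69, 8.50, 8.50, 8.66 and 8.31 in carnitine, with control replicate 5 far below the rest, and its difference of 0.022 became -0.14 without that array. Of the glutathione carriers, Slc25a39 read 8.79, 8.52, 8.39, 8.58 and 8.55 in control and 8.67, 8.57, 8.76, 8.61 and 8.37 in carnitine. Its difference of 0.030 (SE 0.097) became -0.072 after cyclic loess. Slc25a40 differed by 0.28 (SE 0.20), with control values from 5.77 to 7.15 and carnitine values from 6.68 to 7.09. The folate and FAD carrier Slc25a32 differed by 0.12 (SE 0.13).

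**Figure D3:**
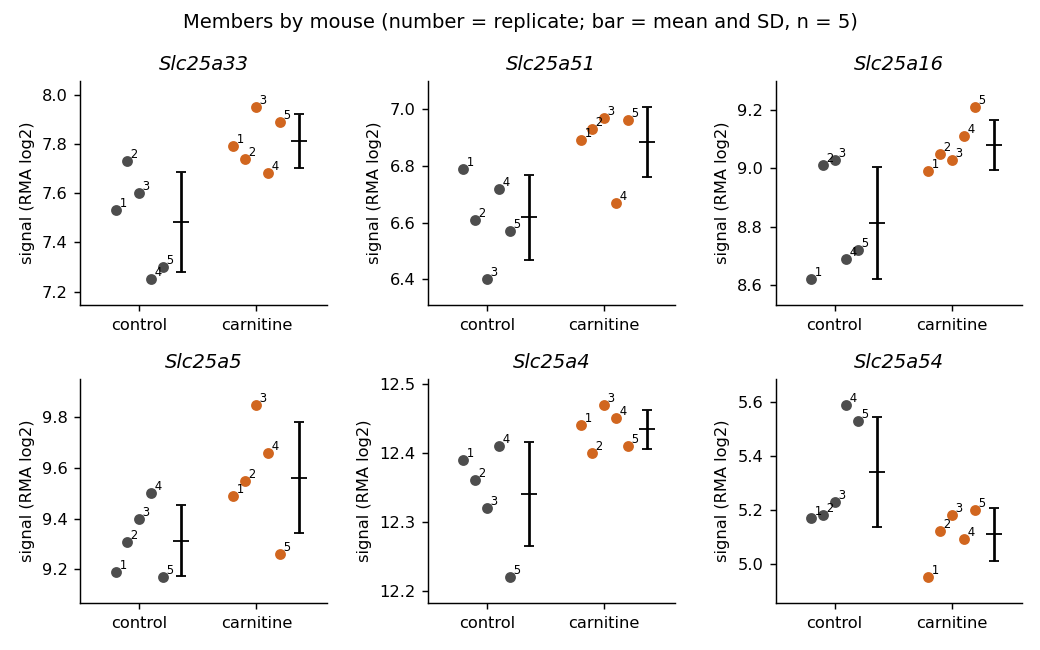
Signal in RMA log2 units (y axes, which do not start at 0) of 6 members in each mouse, with the replicate number beside each point and the group mean with its SD (n = 5) at the right of each group. In Slc25a33 and Slc25a51 4 of 5 carnitine mice lie above every control, in Slc25a4, Slc25a16 and Slc25a5 3 do, and in Slc25a54 3 carnitine mice lie below every control.

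Both iron carriers had positive differences, and both lie above the median probe set level, where 62.8% of all genes were positive. Slc25a28, mitoferrin 2, read 9.06, 8.62, 9.34, 8.84 and 8.58 in control and 9.21, 9.08, 8.99, 9.07 and 8.80 in carnitine, with all carnitine values inside the control range and a difference of 0.14 (SE 0.14). Slc25a37, mitoferrin 1, which is best known from red cell precursors, differed by 0.18 (SE 0.15). Of the carriers related to uncoupling proteins, Slc25a30 differed by 0.17 (SE 0.19), and this rested on carnitine replicate 5 at 8.21, without which the sign turned. Slc25a14 and Slc25a27 differed by 0.046 and -0.002, and both signs turned when single arrays were left out.

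The remaining members have other or unassigned roles, and 7 of 9 differences were negative. Of these 9, 6 lie above the median probe set level, where 62.8% of all genes were positive. The others are dim, where 26.7% of all genes were positive. Slc25a54, a dim relative of the ATP-Mg/phosphate carriers, read 5.17, 5.18, 5.23, 5.59 and 5.53 in control. It read 4.95, 5.12, 5.18, 5.09 and 5.20 in carnitine. Control replicates 4 and 5 stood above all other mice, and the remaining controls lay at 5.17 to 5.23, beside the highest carnitine value of 5.20. The difference was -0.23 (SE 0.11, unadjusted p 0.0456, adjusted p 0.71 in limma), and the unadjusted p was 0.131 without control replicate 4 and 0.0961 without control replicate 5. Slc25a43 read 4.92, 4.99, 5.06, 4.97 and 5.15 in control and 4.42, 4.80, 4.92, 5.05 and 4.89 in carnitine, a difference of -0.20 (SE 0.11). Its lowest value was that of carnitine replicate 1. Both genes lie below the median probe set level.

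Slc25a45, which has been linked to the import of methylated amino acids used in carnitine synthesis, read 6.11, 6.30, 6.31, 6.17 and 6.27 in control. In carnitine it read 6.08, 5.96, 6.27, 6.11 and 5.99. Of the carnitine mice 3 lay below every control, replicate 4 equalled the lowest control and replicate 3 lay within the control range. The difference was -0.15 (SE 0.089, unadjusted p 0.115, adjusted p 0.72 in limma), negative in every alternative setting. Slc25a46 read 9.77, 10.00, 9.74, 9.64 and 9.88 in control and 9.83, 9.79, 9.87, 9.92 and 10.04 in carnitine, and its difference of 0.084 (SE 0.087) became -0.015 after cyclic loess. Slc25a34, Slc25a47, Slc25a48, Slc25a53 and Slc25a35 differed by -0.11, -0.10, -0.034, -0.064 and 0.022. Slc25a34 had the fourth-widest spread among members, from 6.39 in carnitine replicate 5 to 7.63 in control replicate 1. Of the genes left out by the rule, the acylcarnitine carrier Slc25a20 differed by 0.17 (SE 0.14) and Slc25a29 by 0.10 (SE 0.13).

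To ask whether carriers of the same substrate class differed unequally, the log2 ratio of 7 pairs was formed in each mouse and compared by an exact two-sided permutation test over all 252 assignments, with Benjamini-Hochberg adjustment over the 7 pairs. None passed, and the smallest adjusted p was 0.519, shared by 3 pairs. Slc25a4 minus Slc25a5 went from 3.03 ± 0.12 to 2.87 ± 0.20 (SD over 5 mice each, control first), a difference of -0.15 (exact p = 0.183). Slc25a33 minus Slc25a36 went from -1.03 ± 0.31 to -0.72 ± 0.23, a difference of 0.31 (exact p = 0.119), and Slc25a12 minus Slc25a13 from 6.71 ± 0.16 to 6.89 ± 0.22, a difference of 0.18 (exact p = 0.222). The differences for the mitoferrins (Slc25a28 minus Slc25a37, -0.042), Slc25a24 minus Slc25a25 (0.084), Slc25a22 minus Slc25a18 (-0.076) and Slc25a39 minus Slc25a40 (-0.25) were within the spread between mice.

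The carriers varied from mouse to mouse, and some of this variation ran in parallel with the respiratory chain. Each member was set against the mean level of 54 nuclear oxidative phosphorylation genes and of 15 slow-fibre genes across the 10 mice, 88 relations in all, with permutation p-values from 100000 resamples adjusted over all 88. With oxidative phosphorylation, 5 members passed by Pearson's r, all positive. Genes outside the members were not set against either level. The share of all genes that would pass is therefore not known, and the counts cannot be read as particular to carriers. Slc25a3 followed it most closely (r = 0.96, permutation p = 8e-05, adjusted 0.00704, Spearman's rho = 0.89, p = 0.0013, adjusted 0.0572). Next came Slc25a26 (r = 0.88, permutation p = 0.00043, adjusted 0.0189, rho = 0.83, p = 0.00503), Slc25a11 (r = 0.87, permutation p = 0.00138, adjusted 0.0261, rho = 0.84, p = 0.00375), Slc25a15 (r = 0.83, permutation p = 0.00148, adjusted 0.0261, rho = 0.82, p = 0.00592) and Slc25a17 (r = 0.80, permutation p = 0.00255, adjusted 0.0374, rho = 0.79, p = 0.00931). No relation passed by Spearman's rho after adjustment, the smallest adjusted p being 0.0572.

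Control replicate 5 and carnitine replicate 5 lay farthest from the median oxidative phosphorylation level, both at the low end. Without them r was 0.94 for Slc25a3, 0.81 for Slc25a26, 0.84 for Slc25a11 and 0.73 for Slc25a15. Each had an unadjusted exact permutation p below 0.05 (0.00179, 0.0195, 0.0103 and 0.0483). For Slc25a17 r was 0.52 (unadjusted exact permutation p = 0.192), so that relation rested on these mice. After adjustment 0 relations passed without the 2 arrays farthest from the median level. With each group centred on its own mean, r was 0.95, 0.89, 0.87, 0.83 and 0.80 for Slc25a3, Slc25a26, Slc25a11, Slc25a15 and Slc25a17, so the parallel was as strong with the diet difference removed. Groups of 5 are too small for separate correlations. The relations of Slc25a3, Slc25a11 and Slc25a26 also passed after cyclic loess (adjusted 0.00308, 0.0106 and 0.0383), and those of Slc25a15 and Slc25a17 did not (0.104 and 0.129).

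Other bright carriers had a range of correlations with the respiratory chain level. Slc25a4 (r = 0.77, permutation p = 0.00586, adjusted 0.0715, rho = 0.61, p = 0.0629) and Slc25a39 (r = 0.77, permutation p = 0.00977, adjusted 0.074, rho = 0.89, p = 0.00128) missed the adjusted threshold. Without the 2 arrays farthest from the median r was 0.80 for Slc25a4 and 0.87 for Slc25a39 (unadjusted exact permutation p = 0.01815 and 0.00536), and with groups centred 0.81 and 0.78. Slc25a12 had r = -0.05 (permutation p = 0.899, adjusted 0.925, rho = -0.10), and Slc25a16 and Slc25a33, both among the members with the largest differences, had r = -0.10 and 0.21 (permutation p = 0.78 and 0.547, adjusted 0.88 and 0.79, rho = -0.21 and 0.07). Whether these correlations differ from those of Slc25a3 was not tested.

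With the slow-fibre level, which averaged lower in carnitine muscle, 1 member passed. Slc25a44 was lower in mice with more slow-fibre signal (r = -0.85, permutation p = 0.00131, adjusted 0.0261, rho = -0.83, p = 0.00481, adjusted 0.0664). The mice with the highest Slc25a44, carnitine replicates 2 and 5 at 8.03 and 7.97, had the lowest slow-fibre levels of 7.61 and 7.09, and control replicates 1 and 4, at 7.55 and 7.60, had the highest of 9.39 and 9.60. Without carnitine replicates 2 and 5 r was -0.76 (unadjusted exact permutation p = 0.0261), and with groups centred it was -0.82. After cyclic loess it was -0.72 (adjusted 0.129). In those rescaled values Slc25a23 passed with the opposite sign (r = 0.92, adjusted 0.00308), where the deposited values gave r = 0.76 (permutation p = 0.0127, adjusted 0.0858, rho = 0.84, p = 0.0036), and Slc25a44 (r = -0.88), Slc25a30 (r = -0.86) and Slc25a34 (r = 0.84) passed against oxidative phosphorylation (adjusted 0.0229, 0.0106 and 0.018).

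**Figure D4:**
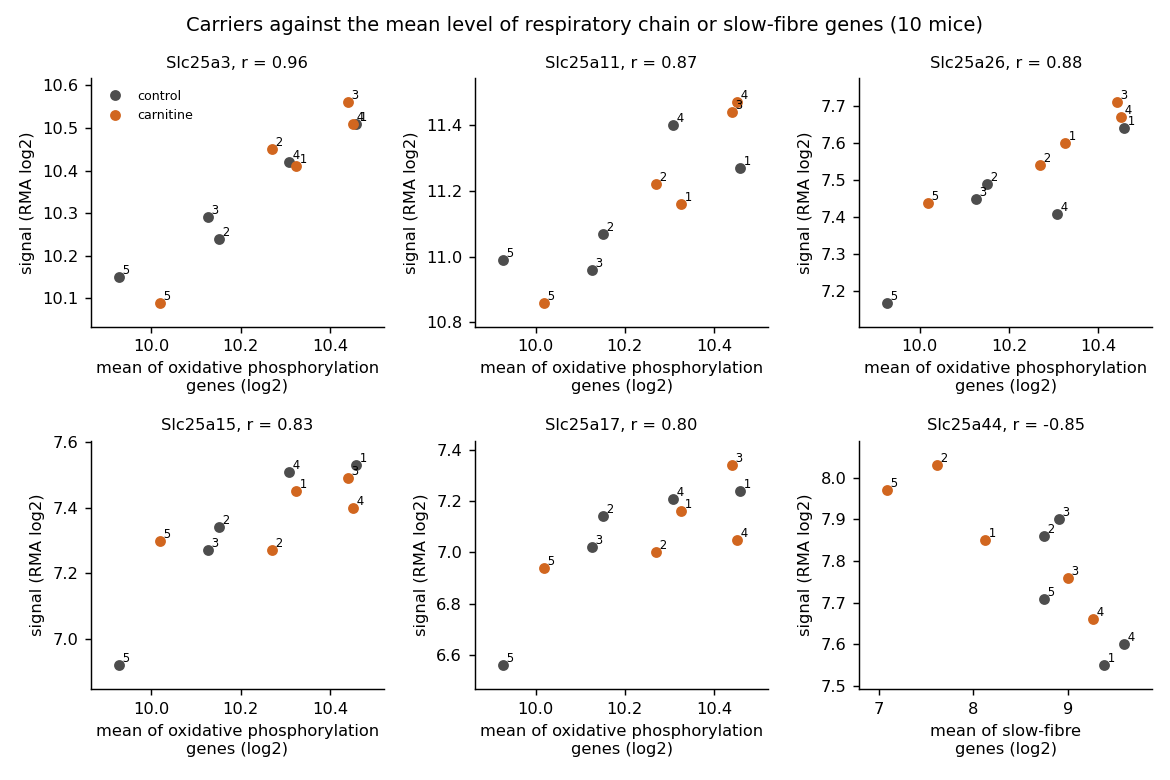
Signal of 6 carriers (y axes, RMA log2 units) against the mean log2 level of 54 oxidative phosphorylation genes (5 panels) or of 15 slow-fibre genes (Slc25a44) in the same mouse, with control mice in grey, carnitine mice in orange and the replicate number beside each point. Slc25a3 rises with the respiratory chain genes through both groups (r = 0.96), the relation of Slc25a17 was weaker (r = 0.52) without control replicate 5 and carnitine replicate 5, and Slc25a44 declines with the slow-fibre level (r = -0.85).

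Genes related to these carriers or to mitochondrial transport and import, here called partner genes, had differences of the same scale. The list holds relatives under other symbols, pyruvate carriers, sideroflexins, outer-membrane pores, calcium uniporter parts and the translocases that insert carriers into the inner membrane, and 30 of its 33 genes were measured by a probe set of their own. Of these 24 had a positive difference, 0 passed an adjusted p of 0.05 in limma, 1 had an unadjusted p below 0.05 on the higher side and 0 on the lower, and the median difference was 0.069. Against this, 29 of the 30 lay above the median probe set level, where 62.8% of all genes were positive, and their share with an unadjusted p below 0.05 on the higher side was 3.33% against 3.14% of all genes. Micu2, a regulatory subunit of the calcium uniporter, differed by 0.29 (SE 0.13, unadjusted p 0.0439, adjusted p 0.71 in limma). Of the import machinery, Tomm22 differed by 0.29 (SE 0.14) and Timm9, a chaperone that escorts carriers across the intermembrane space, by 0.30 (SE 0.16), while the pore gene Vdac2 differed by 0.13 (SE 0.068) with 4 of 5 carnitine mice above every control. On the negative side stood the uniporter pore Mcu (-0.11, SE 0.089), Ucp1 (-0.12, SE 0.13), Timm10 (-0.056, SE 0.098) and the pyruvate carrier Mpc1 (-0.020, SE 0.070). Ucp3, the muscle uncoupling protein, read 9.09 ± 0.42 with control and 9.10 ± 0.36 with carnitine feeding (SD over 5 mice each), and Vdac1, the main pore for ADP and ATP in the outer membrane, 12.50 ± 0.13 and 12.56 ± 0.02.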

How the data were processed

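Muscle RNA of 10 mice was measured on 1 Affymetrix Mouse Gene 2.0 ST array each. The values deposited by the authors are on the log2 scale and come from Affymetrix Expression Console and its RMA procedure, per the submitters' processing notes, with versions not given in the sources used here. Of 34390 probe sets, 23521 have exactly 1 gene symbol in the platform's annotation table, 1814 have several and 9055 are not listed. For 1082 genes with several such probe sets the one with the highest mean was kept, which left 22180 genes. Because RMA scales arrays to each other, total RNA per sample is not visible.

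Groups were compared with limma 3.58.1 in R 4.3.3 (lmFit, eBayes with trend) without a filter on dim genes, with two-sided p-values and Benjamini-Hochberg adjustment over all genes. Ratios were tested by exact permutation in Python 3.11.15, correlations with 100000 resamples. The fit was tested on simulated data. The alternatives tried were cyclic loess, median centring, only genes above the median probe set level, eBayes without the trend, array weights, averaging of probe sets, the replicate number as a block and leaving out each array. No scanner files were used, so background correction was not varied. The number of mice limits the precision: the median standard error of a member's difference was 0.11.

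The members, lists and pairs were chosen with earlier results of these data known. Values in every mouse are given for the 10 brightest members and for the 6 per direction with the smallest unadjusted p. Of the partner genes, the 4 per direction with the smallest unadjusted p were eligible to be named, plus 6 set in advance, of which Ucp2 and Mpc2 had no probe set of their own and are not analysed here. Other marker lists (adipocyte, macrophage, endothelial, Schwann and nerve, liver) entered no test of a member. Their mean levels ran from 6.69 to 7.18, 6.11 to 6.57, 7.62 to 8.26, 5.85 to 6.06 and 5.40 to 5.90 in control and from 6.68 to 6.94, 6.07 to 6.38, 7.88 to 8.31, 5.75 to 6.46 and 5.38 to 5.55 in carnitine.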

Additional observations from a re-analysis of the deposited data

Results flagged for a closer look

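In 4 of the 88 groups of 5 mice (44 members, 2 groups each) 1 mouse lay far from the others, with a gap to its nearest neighbour above 0.71 of the group's range, where chance gives about 1 group in 20. In control replicate 5 Slc25a36 read 7.86, against 8.58 to 8.83 in the other controls. Slc25a38 read 7.18 in control replicate 4, against 6.81 to 6.90. In the carnitine group Slc25a35 read 7.76 in replicate 3, against 7.30 to 7.42, and Slc25a51 read 6.67 in replicate 4, against 6.89 to 6.97. The last is the value that kept the Slc25a51 groups from separating.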

How the results depend on the processing

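Under all 17 alternative settings 0 of the 44 members passed an adjusted p of 0.05 in limma, and the lowest adjusted p was 0.365. The count of members with an unadjusted p below 0.05, 5 in the deposited values, was 3 after cyclic loess and ran from 3 to 6 when single arrays were left out, being 3 without carnitine replicate 2 or 3. On the higher side the count of 4 was 2 after cyclic loess and 3 to 5 without single arrays. The share of all genes on that side was 2.76% after cyclic loess and ran from 2.01% to 5.77% without single arrays. On the lower side the count of 1 was 0 with array weights and 0 among genes above the median probe set level, which leaves Slc25a54 out, and 0 to 1 without single arrays. There the share of all genes was 3.31%, 1.9% and from 2.92% to 5.77%. The median difference of 0.066 was 0.017 after cyclic loess and 0.036 to 0.073 without single arrays. The count of members with no overlap ran from 0 to 2, with Slc25a33 and Slc25a24 separated without control replicate 2, Slc25a33 and Slc25a51 without carnitine replicate 4, Slc25a4 without control replicate 4 and Slc25a23 without control replicate 5. Over all 10 arrays 1.11% of all genes did not overlap. That share was not computed without single arrays, so these counts cannot be read as particular to carriers. Of the partner genes 1 had an unadjusted p below 0.05, 0 after median centring, 0 with array weights and 0 to 3 without single arrays. Of all genes 3.14% were higher and 3.83% lower in the deposited values. These shares were 3.33% and 3.14% after median centring and 3.15% and 3.31% with array weights. Without single arrays they ran from 2.01% to 5.77% and from 2.92% to 5.77%. Without the 2 arrays farthest from the median level 0 relations passed after adjustment, where 6 did over 10 mice. No pair ratio passed under any omission of an array.

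Signs turned in 17 of the 44 members under at least 1 setting. Among the 20 with values in every mouse, these were after cyclic loess Slc25a3 (-0.011), Slc25a46 (-0.015), Slc25a39 (-0.072) and Slc25a36 (-0.079), and with array weights Slc25a36 (-0.094). Leaving out single arrays moved Slc25a39 from -0.014 to 0.087 and Slc25a36 from -0.14 to 0.10. Slc25a39 was negative without replicate 3 of either group, and Slc25a36 without control replicate 5 and without carnitine replicates 1 and 4. The cause was not tested. Same-numbered mice did not deviate together throughout (correlations of deviations over genes from -0.13 to 0.24), so the replicate numbers were not read as pairs. With the replicate number as a block 5 members and 2 partner genes had an unadjusted p below 0.05, and 0 members passed the adjusted threshold. Of all genes 3.85% were then higher and 4.28% lower at that unadjusted p.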
